A study of Homo sapiens with 3 samples.

Results

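Synapses are built from proteins with distinct jobs, and 41 genes for such proteins were examined here, in neural stem cells of human origin, for peaks of CHD8 and of TRRAP. The genes were listed by what their proteins do and make up 41 of 20033 protein-coding genes: 16 presynaptic genes (vesicle proteins, the release machinery, the active zone and vesicular transporters), 13 scaffold genes of the postsynaptic side, 5 adhesion genes that join the facing membranes and 7 subunits of ionotropic glutamate receptors. The scaffold group also holds the kinase genes CAMK2A and CAMK2B. A gene was counted as occupied at its promoter when a peak overlapped by at least 1 bp the 1 kb on either side of its canonical transcript start (GENCODE 44, GRCh38). A gene body peak had its summit inside the gene and did not touch that window.

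The neural stem cells had been made from the human embryonic stem cell line H9, were of wild-type genotype and were kept in a medium with the growth factors EGF and FGF. Chromatin was crosslinked with disuccinimidyl glutarate and formaldehyde, which holds proteins that reach DNA through partners, and was precipitated with an antibody against CHD8, against TRRAP or with control IgG. Each antibody had 1 library, so no value below carries a replicate error and no p-value was computed; the peak lists of CHD8 (23393 peaks) and TRRAP (14735 peaks) are described, and IgG values were not analysed here. Read depth is not in these lists, and an absent peak means only that the caller listed none. The fold of a peak is the authors' linear ratio of the signal at the summit over the caller's background, with a list median of 9.31 for CHD8 and 8.17 for TRRAP. The 2 lists have their own scales and thresholds, so their folds are set side by side but not compared in size.

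CHD8 is a chromatin remodelling enzyme of the CHD family, and changes in its gene are a known cause of autism. TRRAP is the large scaffold subunit of histone acetyltransferase complexes and docks them on transcription factors such as MYC and E2F. At a synapse, SNARE proteins (SNAP25, STX1A and VAMP2) fuse vesicles with the presynaptic membrane, neurexins and neuroligins connect the facing sides, and scaffolds hold glutamate receptors in place. Many neuronal genes carry an RE1 element, the binding site of the repressor REST, which keeps them silent in stem cells and non-neuronal tissue. The peaks measure protein on DNA, not transcription of these genes. Promoters of neural stem cell genes were the best occupied of 4 marker lists used to describe the labelled cells. A CHD8 peak was at 10 of 10 (SOX2 and PAX6 both at fold 12.8), against 55.9% of all protein-coding genes. A TRRAP peak was at 8 of 10, against 34.9%. Of 8 neuron markers 4 had CHD8 and 3 TRRAP, of 8 glial markers 0 had either, and of 8 non-neural markers 2 had CHD8 and 1 TRRAP. The lists also differed in promoter CpG ratio (defined below), with which CHD8 occupancy rose over all genes. Many glial and non-neural markers had low ratios, such as GFAP (0.362) and HBB (0.157), though OLIG1 (0.828) and MBP (0.821) did not. The counts therefore cannot separate cell identity from CpG content.

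The strongest CHD8 promoter peaks of the presynaptic, scaffold and receptor roles show how different the bound sequences were. Each stretch below is 100 bases of GRCh38 beside or over the CHD8 summit, outside annotated untranslated sequence, read along the gene's strand, with every CpG in capitals. That of VAMP2 is chr17:8162976-8163075 on the minus strand, that of DLG1 chr3:197298116-197298215 (minus) and that of GRIN2B chr12:13982040-13982139 (minus).
VAMP2: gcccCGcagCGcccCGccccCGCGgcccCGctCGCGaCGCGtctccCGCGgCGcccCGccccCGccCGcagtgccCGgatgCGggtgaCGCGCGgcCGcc
DLG1: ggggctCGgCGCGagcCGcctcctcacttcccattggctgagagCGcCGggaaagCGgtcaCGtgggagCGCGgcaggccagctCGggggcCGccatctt
GRIN2B: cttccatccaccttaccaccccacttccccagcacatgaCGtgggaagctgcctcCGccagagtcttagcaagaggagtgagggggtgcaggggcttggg
The stretch at VAMP2 held 22 CpGs and that at GRIN2B 2. The DLG1 stretch also held the E-box CACGTG, the word that MYC and related factors bind.

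A CpG-dense promoter without a peak is shown for contrast, since such promoters recur among the presynaptic genes. The 100 bases before the start of CPLX1 (chr4:826130-826229, minus strand), the gene for a complexin that clamps the release machinery, held 17 CpGs and no peak of either list lay within 1 kb. Those upstream of CAMK2B (chr7:44325657-44325756, minus strand), a kinase subunit of the postsynaptic density, also held 17.
CPLX1: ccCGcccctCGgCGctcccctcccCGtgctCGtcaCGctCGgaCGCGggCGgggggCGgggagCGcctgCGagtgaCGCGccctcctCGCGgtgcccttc
CAMK2B: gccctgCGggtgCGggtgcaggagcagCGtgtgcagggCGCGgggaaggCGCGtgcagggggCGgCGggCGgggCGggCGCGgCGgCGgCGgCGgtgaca

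The RE1 word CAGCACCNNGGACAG, searched on both strands, stood within 1 kb of the start of 6 members. Each match is printed below with 7 bases on either side, on the strand that carries the word, with the 15 letters of the word in capitals, because the binding state of these otherwise alike sites differed between the genes. The matches lie at chr4:157220392-157220406 (GRIA2, minus strand), chr9:137139262-137139276 (GRIN1, plus), chr11:22337754-22337768 (SLC17A6, minus), chr20:10219674-10219688 (SNAP25, plus), chrX:47620074-47620088 (SYN1, minus) and chrX:49200126-49200140 (SYP, minus). SNAP25 carried a second copy with 1 mismatch at chr20:10219623-10219637 on the plus strand.
GRIA2: ggcctttCAGCACCGAGGACAGcgcctcg
GRIN1: cccgcttCAGCACCGCGGACAGcgccggc
SLC17A6: aatgtttCAGCACCACGGACAGagtaagt
SNAP25: gacctttCAGCACCGGGGACAGcggtccg
SNAP25 with 1 mismatch: ccgcgctCAGCACCCTGGATAGcaacacc
SYN1: ccagcttCAGCACCGCGGACAGtgccttc
SYP: cgcgctcCAGCACCGTGGACAGagcccgc

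CHD8 occupied the promoters of 21 of the 41 genes (51.2%, Wilson 95% interval 36.5 to 65.7%, covering counting error only) and TRRAP those of 11 (26.8%, 15.7 to 41.9%). Over all protein-coding genes 55.9% had a CHD8 promoter peak and 34.9% a TRRAP promoter peak. Both shares among these 41 genes thus stood within counting error of the background. Both proteins were present at 10 genes (24.4%, 13.8 to 39.3%), against 34.0% of all genes. These were the presynaptic genes SYT1, SNAP25, VAMP2 and BSN, the scaffolds DLG1, HOMER1, HOMER3 and GPHN, and the adhesion genes NRXN2 and NLGN1. CHD8 alone was listed at 11 genes (SYP, STX1A, UNC13A, DLG2, DLG4, SHANK1, SHANK3, NLGN3, GRIN2B, GRIA1 and GRIA4) and TRRAP alone at GRIA2. The other 19 had neither. TRRAP accompanied CHD8 at 10 of 21 occupied members (47.6%, 28.3 to 67.6%) and at 60.7% of the 11208 occupied genes overall.

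By role, CHD8 was at 7 of 16 presynaptic promoters (43.8%, 23.1 to 66.8%), 8 of 13 scaffold promoters (61.5%, 35.5 to 82.3%), 3 of 5 adhesion promoters (60.0%, 23.1 to 88.2%) and 3 of 7 receptor promoters (42.9%, 15.8 to 75.0%). TRRAP was at 4, 4, 2 and 1 of them. The intervals of the 4 roles overlap one another, so no order among the roles was detectable with this number of genes. No receptor promoter carried both proteins (0 of 7, an upper Wilson bound of 35.4%). The share over all genes was 34.0%, within that bound. A list of 112 other synaptic genes gave 45 with CHD8 (40.2%, 31.6 to 49.4%) and 26 with TRRAP (23.2%, 16.4 to 31.8%). Its receptor genes were the least occupied role, with CHD8 at 10 of 40 (25%, 14.2 to 40.2%) and TRRAP at 3 of 40 (7.50%, 2.58 to 19.9%). Its presynaptic genes had CHD8 at 16 of 33 and TRRAP at 11, its scaffolds at 9 and 6 of 16, and its adhesion genes at 10 and 6 of 23.

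**Figure D1:**
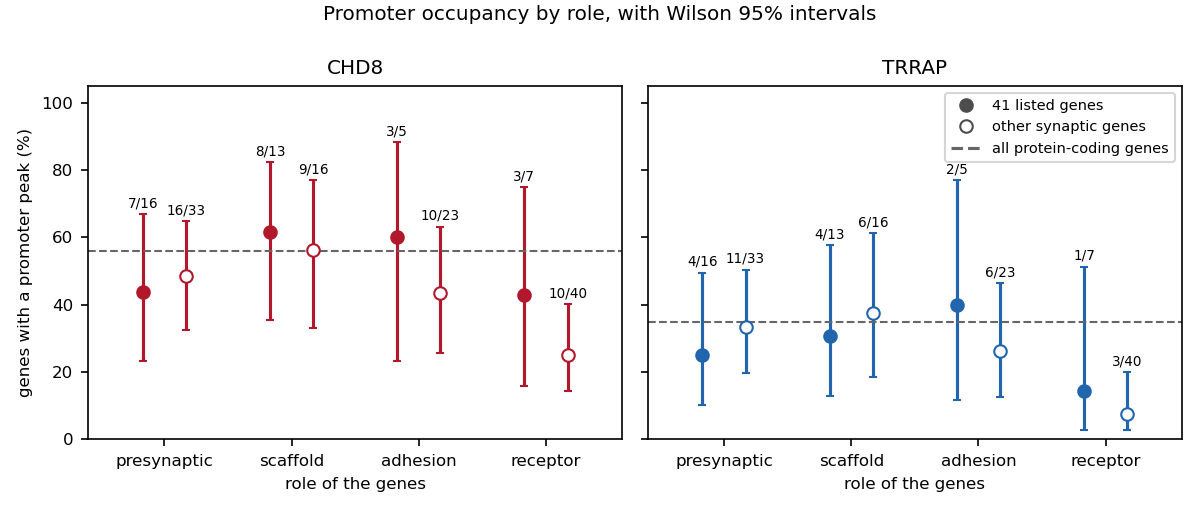
Share of genes with a promoter peak (vertical axis, percent) by role, for CHD8 (left) and TRRAP (right); filled points are the 41 genes, open points the 112 other synaptic genes, bars Wilson 95% intervals and the dashed line the share of all protein-coding genes (55.9% and 34.9%). The open receptor points lie lowest, at 25% and 7.50%, with intervals that end below the dashed lines.

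Where CHD8 was present, its peaks were mostly of modest size. The median of the strongest CHD8 promoter fold was 10.2 over the 21 occupied members and 12.0 over all 11208 occupied genes, and 6 of the 21 stood above the latter. The peaks were also narrower, with a median width of 391 bp against 638 bp. For TRRAP the medians were 8.17 over 11 members and 8.65 over 7000 genes. Folds take a limited set of values in each list, so several genes share the same fold.

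**Figure D2:**
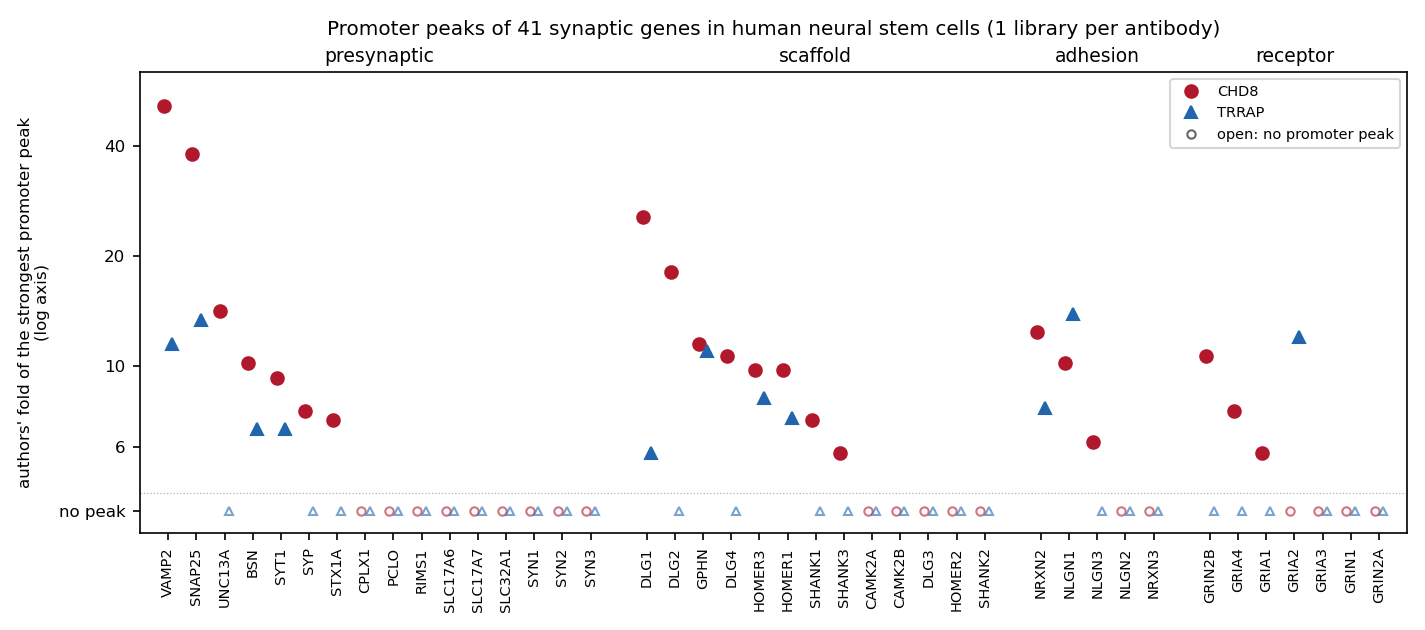
Fold of the strongest promoter peak (vertical log axis) for each of the 41 genes, ordered within its role by CHD8 fold; red circles are CHD8, blue triangles TRRAP and small open symbols on the bottom row genes with no promoter peak. VAMP2 (51.7), SNAP25 (38.0) and DLG1 (25.7) stand above the other CHD8 values, and 19 genes have open symbols for both proteins.

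Among the presynaptic genes, the vesicle SNARE gene VAMP2 had the strongest CHD8 peak of all members. It lay at chr17:8162290-8163589, with a fold of 51.7, a −log10 q of 166 and its summit 17 bp downstream of the start in the first exon's untranslated part. Its fold exceeded that of 99.5% of occupied genes, and the peak ranked 107 of 23393 by the caller's q. A smaller CHD8 peak (fold 7.98) lay 888 bp upstream, and TRRAP had peaks of fold 11.5 and 6.73 with summits 75 and 709 bp upstream. All 4 peaks could belong to a second annotated gene, since the start of the read-through coding gene ENSG00000263620 is 27 bp from that of VAMP2.

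SNAP25, the gene for a SNARE of the target membrane, came next. Its main CHD8 peak (chr20:10218606-10219785, fold 38.0, −log10 q 111, rank 297) spanned the start, with the summit 28 bp upstream, and weaker peaks of fold 7.98 and 7.10 lay 526 and 1069 bp upstream. TRRAP had 2 peaks under the main CHD8 peak. The smaller (fold 8.65) had its summit 37 bp upstream of the start and the larger (chr20:10219476-10219726, fold 13.4) 756 bp downstream in intron 1, where both RE1 copies printed above lie. STX1A, which encodes the partner SNARE syntaxin, had only a weak CHD8 peak (chr7:73719435-73719596, fold 7.10) in intron 1 and no TRRAP peak. The CHD8 folds of the 3 SNARE genes thus ran from 7.10 to 51.7.

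Of the 7 presynaptic genes with CHD8, 4 were not SNARE genes, and their folds ran from 7.54 to 14.2. SYT1, which encodes the calcium sensor of vesicle release, had CHD8 at fold 9.31 (chr12:78864440-78864953, summit 88 bp downstream) and TRRAP at 6.73, 275 bp downstream. BSN, which encodes the active zone protein bassoon, had CHD8 at 10.2 (chr3:49554178-49554512, summit 148 bp upstream) and TRRAP at 6.73, 255 bp upstream. UNC13A, which encodes a vesicle priming factor, had CHD8 at 14.2 (chr19:17688223-17688479, summit 19 bp downstream) and no TRRAP peak in the window; the nearest TRRAP peak (fold 9.60) was 1567 bp downstream in intron 1. SYP, the gene for the vesicle membrane protein synaptophysin, had CHD8 alone at fold 7.54 (chrX:49200204-49200451, summit 117 bp upstream).

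The remaining 9 presynaptic genes had no promoter peak in either list. They were SYN1, SYN2 and SYN3, which encode the synapsins that tether vesicles, PCLO and RIMS1 of the active zone, the complexin gene CPLX1, and SLC17A6, SLC17A7 and SLC32A1, the transporters that load glutamate or GABA into vesicles. All 3 synapsins and all 3 transporters lacked a peak. For SLC17A7 a weak CHD8 peak (fold 6.66) lay 1502 bp upstream of the start, outside the window.

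Of the scaffold genes, DLG1, which encodes a membrane-associated guanylate kinase, had the strongest CHD8 peak (chr3:197297507-197298798, fold 25.7, −log10 q 65.2, summit 488 bp downstream in intron 1). Its TRRAP peak was among the weakest of the members, at fold 5.78 with the summit 429 bp downstream. At its relative DLG2 the larger CHD8 peak (chr11:85628266-85629054, fold 18.1) had its summit 1235 bp upstream of DLG2 and 14 bp from the start of the neighbouring gene TMEM126B, with another annotated DLG2 start 244 bp away. A second DLG2 peak, at 799 bp upstream, had a fold of 6.66 and was 187 bp from another annotated DLG2 start and 450 bp from that of TMEM126B. DLG4, the gene for PSD-95, had a CHD8 peak of fold 10.6 at its canonical start (chr17:7217559-7217852, summit 74 bp upstream). DLG3 had none there.

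HOMER1 and HOMER3, which encode adaptors between receptors and calcium stores, had both proteins. HOMER1 had a wide CHD8 peak over the start (chr5:79513432-79514634, fold 9.75, summit 73 bp downstream), another of fold 7.98, and TRRAP at fold 7.21 with the summit 6 bp downstream. HOMER3 had CHD8 at fold 9.75 with a summit 1052 bp downstream (chr19:18940028-18940307) and at 7.10 beside the start, where TRRAP was listed at 8.17 and 5.78. GPHN encodes gephyrin, the scaffold of inhibitory synapses, and carried 3 CHD8 peaks, the largest of fold 11.5 (chr14:66507692-66508639, summit 219 bp upstream), with TRRAP at 11.0 and 8.65. SHANK1 (fold 7.10, chr19:50719668-50719958, summit 14 bp upstream) and SHANK3 (fold 5.77, chr22:50675033-50675225, summit 239 bp downstream) had CHD8 alone. These SHANK genes encode master scaffolds of the excitatory synapse, and only 0.196% of occupied genes had a lower fold than SHANK3. SHANK2, HOMER2, DLG3 and the kinase genes CAMK2A and CAMK2B had no promoter peak.

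Among the adhesion genes, NRXN2 had CHD8 at fold 12.4 (summit 243 bp upstream) and TRRAP at 7.69, 425 bp upstream. NLGN1, which encodes a neuroligin of excitatory synapses, had CHD8 at 10.2 (chr3:173397320-173397855, summit 42 bp upstream) and the strongest TRRAP promoter peak of all members (fold 13.9, chr3:173397416-173397932, summit 38 bp downstream). NLGN3 had a weak CHD8 peak at the edge of the window (fold 6.22, chrX:71145789-71146012, summit 1094 bp downstream in intron 1). NRXN3 and NLGN2 had no peak at the canonical start. A cluster of 3 CHD8 peaks (folds 7.98, 6.66 and 12.4) and 1 TRRAP peak (7.21) lay 3046 to 4134 bp upstream of the canonical NLGN2 start. The strongest of them (12.4) was 75 bp from another annotated NLGN2 start and 702 bp from the start of its neighbour TMEM256, and the TRRAP peak 176 and 601 bp. The weaker CHD8 peaks were nearer to TMEM256 (386 and 266 bp) than to an NLGN2 start (1163 and 511 bp).

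The receptor genes had the lowest median CHD8 fold of the 4 roles (7.54), with folds of 10.6 (GRIN2B), 7.54 (GRIA4) and 5.77 (GRIA1), all under the all-gene median of 12.0. GRIN2B encodes an NMDA receptor subunit that is prominent early in development, and its peak lay 488 bp upstream of the start (chr12:13981790-13982208), with a second of fold 5.77 in intron 1, 920 bp downstream. GRIA4 had 2 CHD8 peaks of fold 7.54, at 92 bp upstream (chr11:105609867-105610187) and 525 bp downstream, and GRIA1 had 1 at 93 bp upstream (chr5:153490505-153490658). GRIA2, the AMPA receptor subunit that controls calcium permeability, was the reverse. TRRAP was listed there at fold 12.0 (chr4:157220359-157220599, −log10 q 18.7, summit 249 bp upstream), above 76.5% of TRRAP-occupied genes, and no CHD8 peak was in the window. GRIN1, the obligatory NMDA receptor subunit, GRIN2A and GRIA3 had none.

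**Figure D3:**
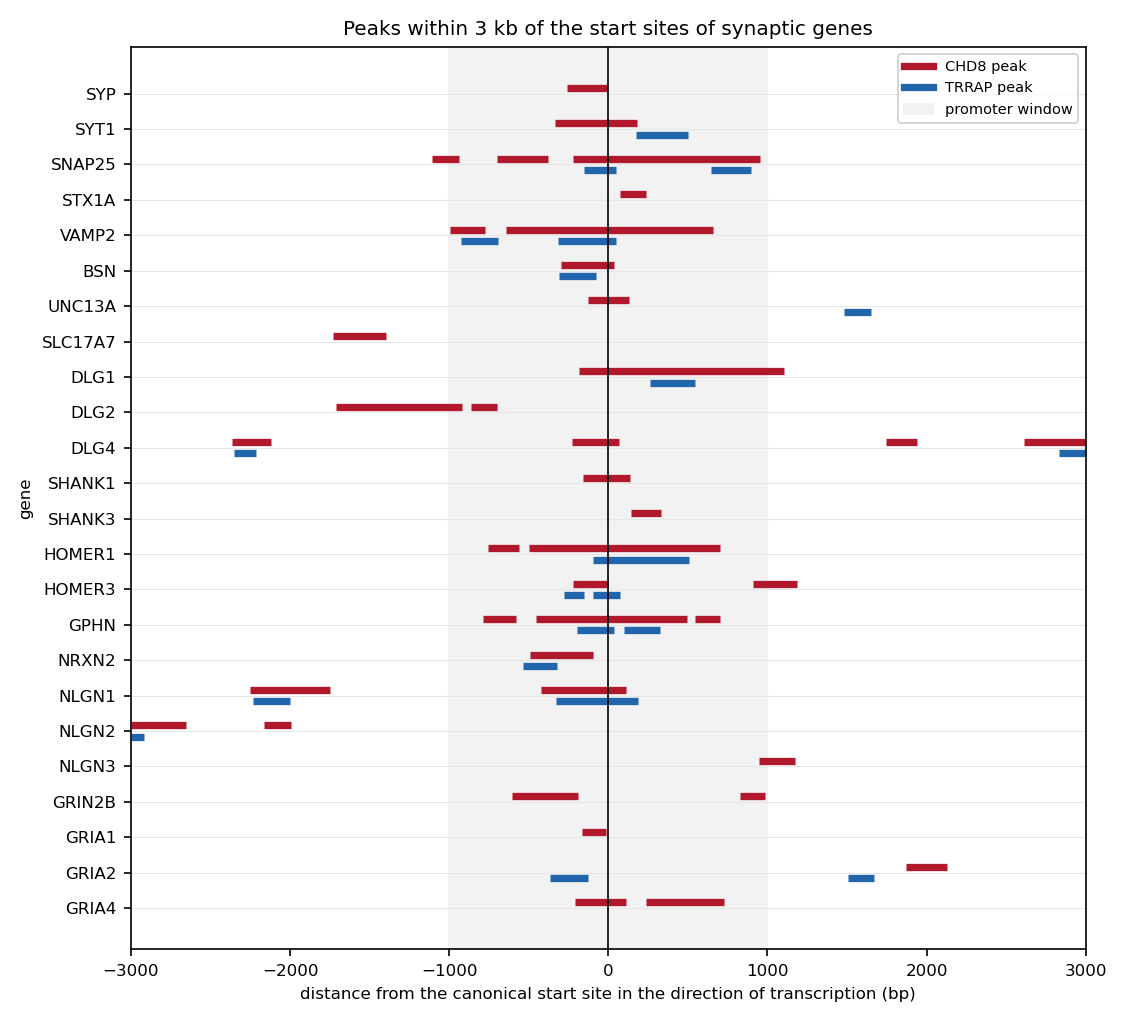
Peaks within 3 kb of the canonical start for the 24 genes that had any; the horizontal axis is the distance from the start in bp in the direction of transcription, red bars are CHD8 peaks, blue bars TRRAP peaks and the grey band the promoter window. The widest CHD8 bars cover the starts of VAMP2, SNAP25, DLG1 and HOMER1, while GRIA2 has a TRRAP bar and no CHD8 bar inside the band.

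In all, 31 CHD8 peaks touched member promoter windows and 17 of them had a summit within 250 bp of the start. Of these 31, 11 overlapped a TRRAP peak. Of 15 TRRAP promoter peaks, 14 overlapped a CHD8 peak, and the exception was the GRIA2 peak. Over all genes, 6802 of the 7000 promoters with TRRAP also had CHD8, counted by gene and not by peak overlap. A CHD8 peak beside TRRAP was thus the general state and not particular to the members. Every summit of these promoter peaks lay in sequence that occurs once in the genome, judged by 32-base words. The nearest other coding start mattered for VAMP2 and DLG2 only, in that no other promoter peak had its summit within 1 kb of the canonical start of another coding gene.

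CpG density, which tracks open promoters in most tissues, was measured as the observed over expected CpG ratio in the 500 bp on either side of the start. The members as a group had the same median ratio as all genes (both 0.725). CHD8 occupancy went with a higher ratio over all genes and not among the members, as values without a test. Over all genes the median ratio was 0.799 with CHD8 and 0.360 without. Among the members it was 0.694 (25th to 75th percentile 0.554 to 0.798, n = 21) with CHD8 and 0.796 (0.591 to 0.867, n = 20) without, so the ranges of occupied and unoccupied members overlapped widely. With 250 bp on either side the medians were 0.799 and 0.827 in the members and 0.855 and 0.382 in all genes. For TRRAP the members with a peak had the higher median, 0.798 (n = 11) against 0.683 (n = 30), as all genes did (0.822 against 0.610).

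Across quartiles of the ratio over all genes, the share of genes with CHD8 went from 5.23% to 57.5%, 78.2% and 82.9%, whereas in the members it was 4 of 7 (57.1%), 8 of 13 (61.5%), 5 of 10 (50.0%) and 4 of 11 (36.4%). Each quartile held only 7 to 13 members, and no order among the member shares was tested. In the lowest quartile the 4 occupied members were GRIA1, DLG2, DLG4 and NLGN3. The larger DLG2 peak lay at TMEM126B, and its summit and that of NLGN3 stood outside the window while the peaks reached into it. With a window of 500 bp the count was 2 of 7. Above the all-gene median, 12 of 21 members lacked CHD8, against 1949 of 10016 genes (19.5%). These were SYN1, SYN2, SYN3, CPLX1, PCLO, RIMS1, SLC32A1, CAMK2B, SHANK2, HOMER2, GRIN1 and GRIA2, so 7 of the 9 presynaptic genes without CHD8 had a CpG-rich promoter. With starts of all transcripts, 9 of the 21 lacked CHD8, against 17.9% of all such genes. GRIN1 had the highest ratio of all members (1.00) and neither protein. The 112 other synaptic genes had CHD8 at 5 of 11, 9 of 38, 16 of 32 and 15 of 31 genes of the 4 quartiles, which is 48.4% in the highest.

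**Figure D4:**
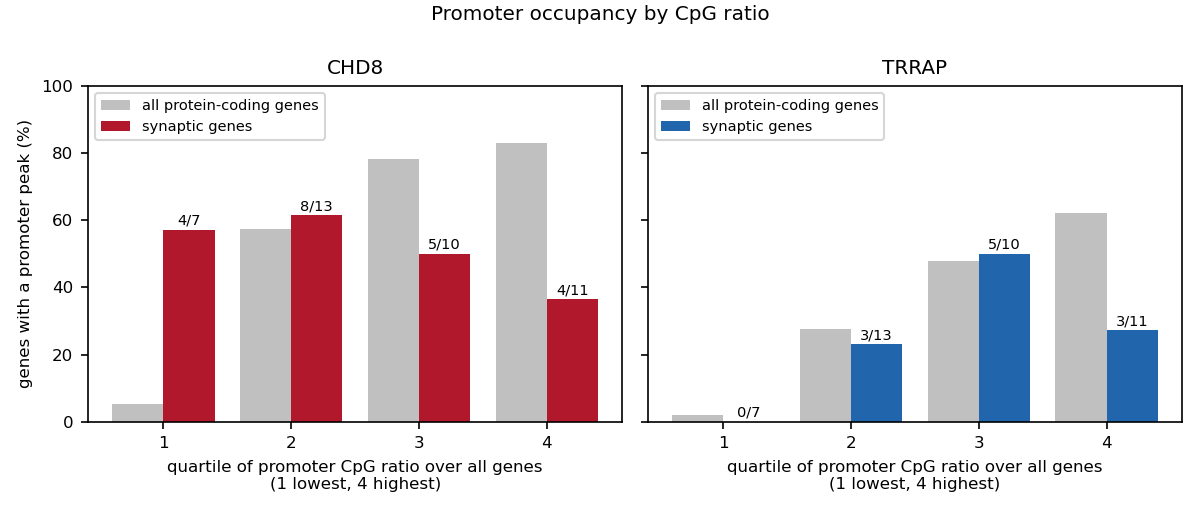
Share of genes with a promoter peak (vertical axis, percent) in each quartile of the promoter CpG ratio over all genes, for CHD8 (left) and TRRAP (right); grey bars are all protein-coding genes and coloured bars the 41 synaptic genes, with counts above them. The grey CHD8 bars go from 5.23% to 82.9%, and the red bars go from 57.1% to 36.4%.

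The RE1 word had the largest ratio of its share in members to its share in all genes among the 6 words searched (RE1, E-box, CRE, ETS, CTCF and NRF1). It stood within 1 kb of the start of 6 of 41 members (14.6%) and of 78 of 20033 genes (0.389%). With up to 1 mismatch the members were the same 6, against 354 genes (1.77%) in all, and among the 112 other synaptic genes 6 (5.36%) held the exact word. The members with the word did not share a binding state. In SNAP25 both copies lay inside the main CHD8 peak and the larger TRRAP peak, and in GRIA2 the word lay inside the TRRAP peak, 329 bp upstream of the start and 2194 bp from the nearest CHD8 peak. In SYP the word was 64 bp from the CHD8 peak, outside it. SYN1, GRIN1 and SLC17A6 had no peak near, with the nearest CHD8 peak 11401, 9062 and 94569 bp away. Over all 78 promoters with the word, 24 (30.8%) had CHD8 and 16 (20.5%) TRRAP, and the word itself was inside a CHD8 peak in 13 (16.7%) and a TRRAP peak in 10 (12.8%).

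The E-box CACGTG was within 1 kb of 9 of 21 members with CHD8 (42.9%) and 2 of 20 without (10.0%). Over all genes it was at 32.4% of promoters with CHD8 and 25.2% without. From 250 bases before to 50 after the start it was at 1 of 21 members with CHD8 (4.76%, UNC13A) and 0 of 20 without, against 10.4% and 6.70% of all genes, so the excess over all genes was not present in the narrower window. The members with the word within 1 kb and with CHD8 were SYT1, STX1A, VAMP2, UNC13A, DLG1, SHANK1, HOMER1, GPHN and GRIA1. The ETS word CCGGAAGT, which was at 14.5% of all promoters with CHD8 and 2.48% of those without, was found in 1 member, HOMER1 (2.44%, against 9.23% of all genes). A match is a run of letters, and binding of the factor was not measured.

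Inside the genes, 17 members had at least 1 CHD8 peak beyond the promoter (41.5%, 27.8 to 56.6%), against 18.3% of all genes, and 11 had a TRRAP peak (26.8%), against 11.6%. The members are long, with a median length of 125 kb against 27.5 kb, and the higher shares came with fewer peaks per length. The 25 CHD8 body peaks made 0.203 per 100 kb and the 14 TRRAP peaks 0.114, against 0.475 and 0.265 over all genes. By length, a CHD8 body peak was in 1 of 6 members under 20 kb (16.7%, against 7.84% of all such genes). It was in 5 of 12 of 20 to 100 kb (41.7%, against 19.2%) and 5 of 9 of 100 to 300 kb (55.6%, against 37.1%). At 300 kb and over it was in 6 of 14 (42.9%, against 51.2%). In these 14 members CHD8 had 0.0974 peaks per 100 kb against 0.264 in all such genes. In the 9 members of 100 to 300 kb CHD8 had 0.425 against 0.459. In the 12 members of 20 to 100 kb CHD8 had 1.37 against 0.610, and TRRAP 1.03 against 0.357. DLG4 alone held 3 of the 8 CHD8 and 2 of the 6 TRRAP peaks of that length class. In that class DLG3, DLG4 and SHANK3 each had, in both lists, a body summit within 1 kb of another annotated start of the gene. Gene body peaks by role were found for CHD8 in 3 of 16 presynaptic, 8 of 13 scaffold, 3 of 5 adhesion and 3 of 7 receptor genes, and for TRRAP in 2, 5, 1 and 3. The Wilson intervals of the 4 roles overlap for each protein (CHD8 6.59 to 43.0% for presynaptic and 35.5 to 82.3% for scaffold genes). The roles also differed in median gene length, at 67.5 kb (presynaptic), 125 kb (scaffold), 117 kb (adhesion) and 324 kb (receptor).

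DLG4 had the strongest gene body peak of either list, in intron 1 (chr17:7213867-7215015, CHD8 fold 17.7, −log10 q 38.2). Its summit was 3392 bp downstream of the canonical start and 323 bp from another annotated DLG4 start, and 2 TRRAP peaks (9.12 and 7.69) lay under it. With 5 body peaks in 33 kb (3 CHD8 and 2 TRRAP), DLG4 had the most gene body peaks for its length among the members. The next CHD8 peaks were in HOMER2 (chr15:82985864-82986385, fold 12.4, at an alternative start 33304 bp upstream of the canonical start and 186 bp from the start of RAMAC), in NLGN1 (chr3:173585180-173585993, fold 11.1, intron 1), in NRXN2 (chr11:64694897-64695190, fold 11.1, intron 3) and in SHANK3 (chr22:50705321-50705591, fold 9.75, intron 15). The NLGN1 summit was 758 bp from another annotated NLGN1 start. The SHANK3 peak was 57 bp from an internal start of that gene and overlapped a TRRAP peak of fold 7.69.

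The strongest TRRAP body peak was in GRIN2B (chr12:13851955-13852195, fold 10.1, −log10 q 14.8), in intron 3, 129527 bp downstream of the start. It overlapped a CHD8 peak of fold 9.75 and was 127908 bp from any annotated GRIN2B start, the farthest of the shared body peaks from a promoter. UNC13A (9.60, chr19:17686701-17686872), DLG4 (9.12, chr17:7214437-7214794) and DLG2 (8.17, chr11:85484040-85484172, in sequence present in about 5 copies in the genome) followed. The other DLG4 peak and those of SHANK3 and DLG3 came next, tied in fold (7.69) and −log10 q (8.62). DLG2, the longest member at 2173 kb, had 3 CHD8 and 2 TRRAP body peaks spread over it, the last CHD8 peak (fold 8.43) in the untranslated part of exon 28. For GRIN2B and DLG4, 100 bases at the CHD8 summit of a body peak that TRRAP peaks overlap are printed on the gene's strand, with CpGs in capitals, because one is far from any start and the other beside one. The DLG4 stretch lies almost wholly between the 2 TRRAP peaks and is CHD8 summit sequence. They are chr12:13851956-13852055 and chr17:7214185-7214284.
GRIN2B: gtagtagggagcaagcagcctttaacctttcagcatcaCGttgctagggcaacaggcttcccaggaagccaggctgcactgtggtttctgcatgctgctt
DLG4: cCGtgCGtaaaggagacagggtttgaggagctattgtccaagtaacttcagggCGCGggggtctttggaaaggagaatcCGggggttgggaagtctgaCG
The GRIN2B stretch held 1 CpG and the DLG4 stretch 6. Neither printed stretch held the E-box. Within 100 bp of the summit, 2 of 25 CHD8 body peaks had it (8.0%, against 4.82% of such peaks in all genes). They were the GRIN2B peak and 1 of the 3 CHD8 body peaks of DLG4. A count of 2 is too small to be told apart from the all-gene share.

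Fewer of these body peaks were shared between the lists than over all genes, as counts without a test. Of the 25 CHD8 body peaks 5 overlapped TRRAP (in DLG3, DLG4, SHANK3, CAMK2B and GRIN2B), against 42.5% of the 6157 CHD8 body peaks of all genes. Of the 14 TRRAP body peaks 6 overlapped CHD8, against 83.0% of 3479. The member body peaks also had lower median folds, 7.54 against 8.43 for CHD8 and 7.45 against 8.17 for TRRAP. The members are longer too (median 125 kb against 27.5 kb), and whether fold or length accounts for the lower sharing was not tested. Within 1 kb of another start of the same gene lay 9 of the 25 CHD8 and 6 of the 14 TRRAP peaks. Without them, 16 CHD8 peaks in 11 members and 8 TRRAP peaks in 6 members were left.

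Body peaks were the only peaks of 10 members under these rules, NLGN2's upstream cluster apart, and apart from HOMER2 they were weak. SYN1 had CHD8 at fold 7.98 in intron 1 and at 6.66 in intron 5, the latter 163 bp from the start of TIMP1, a gene nested in SYN1. SYN3 had CHD8 at 6.22 and 5.77, in introns 2 and 6. RIMS1 had TRRAP alone at 6.73, in intron 4, and NRXN3 TRRAP alone at 7.21, in intron 15 and 143 bp from another NRXN3 start. DLG3 had CHD8 at 5.77 and TRRAP at 7.69 in intron 9, where another DLG3 start lay 91 bp from the CHD8 summit. SHANK2 had CHD8 at 7.54 and 5.77, the latter 10 bp from another start of the gene. For the kinase genes, CAMK2A had CHD8 at 6.22 in intron 1, and CAMK2B had CHD8 at 6.66 and TRRAP at 6.26 at the same place in intron 4. NLGN2 had CHD8 at 5.77, 2109 bp upstream of its canonical start and inside the gene as annotated from other starts. Most of these 10 genes thus had their peaks in introns, and 4 of them (DLG3, SHANK2, HOMER2 and NRXN3) had a summit within 143 bp of another start of their own.

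Members with a promoter peak also had further peaks. BSN had a CHD8 body peak of fold 7.10, NRXN2 a second of 9.31 in intron 5, and UNC13A a second TRRAP peak of 7.21. GRIA1 had CHD8 at 6.66 and TRRAP at 6.26, far apart in intron 2, and GRIA2 had weak peaks of both, CHD8 at 5.77 and TRRAP at 5.30, in its intron 2. Upstream of the window, NLGN1 had CHD8 (7.10) and TRRAP (9.60) with summits 2111 and 2110 bp before the start, and DLG4 had CHD8 (7.98) and TRRAP (9.12) between another DLG4 start (22 and 66 bp from the summits) and the start of its neighbour ACADVL (75 and 31 bp). No peak at all was counted at SYN2, PCLO, CPLX1, SLC17A6, SLC17A7, SLC32A1, GRIN1, GRIN2A and GRIA3, which are 6 presynaptic and 3 receptor genes, the SLC17A7 peak outside the window apart.

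**Figure D5:**
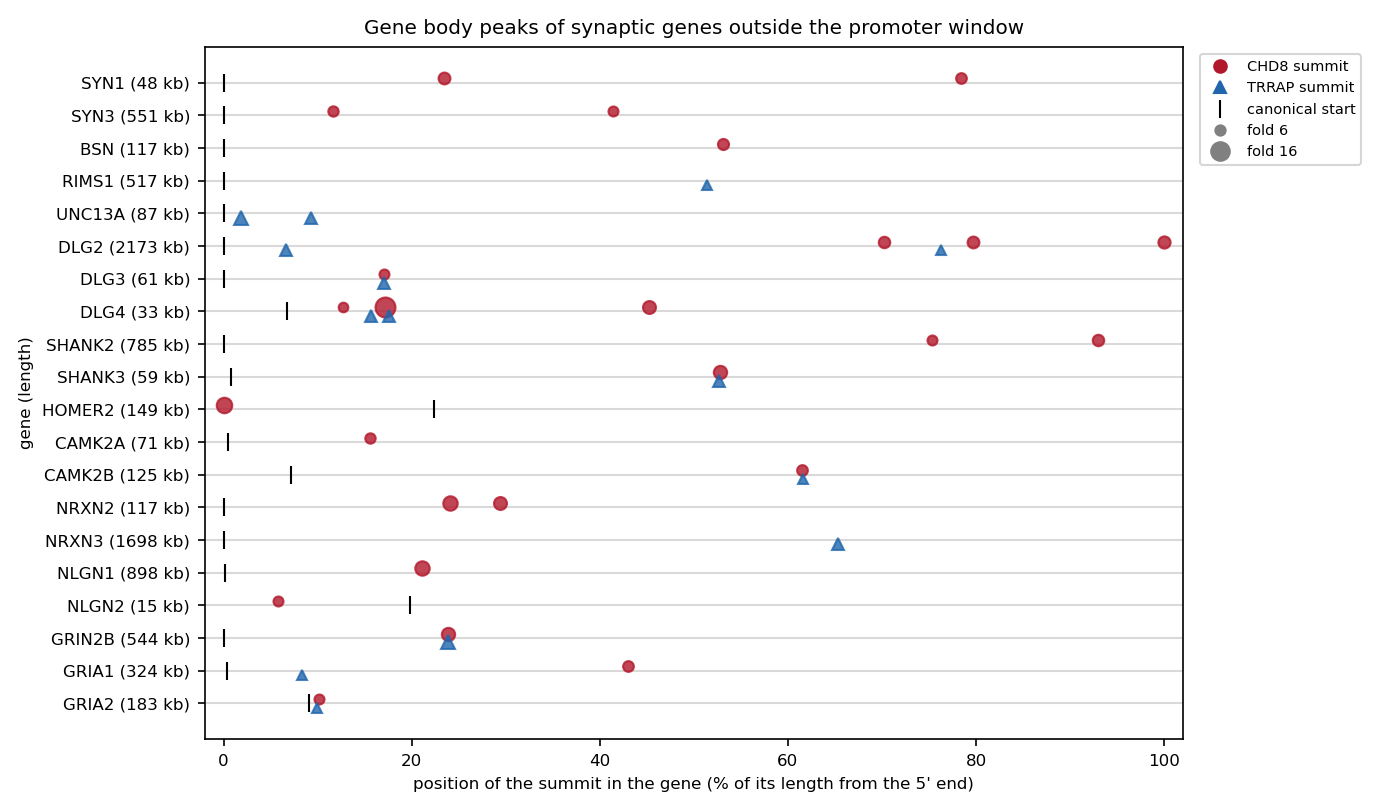
Summits of gene body peaks in the 20 members that had any; the horizontal axis is the position as percent of the gene's length from its 5′ end, red circles are CHD8, blue triangles TRRAP, symbol size follows the fold and a black tick marks the canonical start. The largest circle is the DLG4 peak of fold 17.7, and paired symbols show shared peaks in DLG3, DLG4, SHANK3, CAMK2B and GRIN2B.

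Of the families of related genes, 7 were split for CHD8 and 3 had no CHD8 promoter peak. CHD8 was at 3 of 4 DLG, 2 of 3 SHANK, 2 of 3 HOMER, 1 of 2 NRXN, 2 of 3 NLGN, 1 of 3 GRIN and 2 of 4 GRIA promoters, and at 0 of 3 SYN, 0 of 2 SLC17A and 0 of 2 CAMK2 promoters. TRRAP was at 1, 0, 2, 1, 1, 0 and 1 of the first 7 families and at 0 of the last 3. Over all genes the shares were 55.9% for CHD8 and 34.9% for TRRAP. Families of 2 to 4 genes are too small to be told apart from these shares.

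Among the 112 other synaptic genes the strongest CHD8 promoter peaks of the scaffold role were at PICK1 (38.5, an adaptor of AMPA receptors), TANC1 (13.7) and KALRN (13.3), and of the adhesion role at ADGRL2 (16.4), ADGRL1 (14.6) and CADM1 (12.8). Those of the presynaptic role were at RIMS2 (17.7), ERC1 (14.2) and PPFIA3 (13.7), all of the active zone. Those of the receptor role were at GABBR1 (12.4), GRM3 (10.6) and GRM2 (10.2), which encode metabotropic receptors for GABA and glutamate. The RIMS2 summit was nearer to the start of the coding gene ENSG00000285982 (416 bp) than to any RIMS2 start (605 bp). The start of the coding gene C19orf73 lay 401 bp upstream of that of PPFIA3, so both peaks could belong to the neighbour.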

How the data were processed

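ChIP-seq peak lists of CHD8 and TRRAP (1 library each) were used; values of the IgG library were not analysed here. Per the submitters' processing notes, HISAT2, MACS2 2.1.1.20160309 and GRCh38 were used; parameters and the control are not given in the sources used here. The authors deposited, per peak, a linear fold ratio, −log10 p and q values and a score (10 times −log10 q, rounded down). The lists are labelled with false discovery rates of 0.0001 (CHD8) and 0.001 (TRRAP); 14712 TRRAP peaks also passed 0.0001. No peak ran past a GRCh38 chromosome end.

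Peaks were assigned to canonical starts with Python 3.11.15, pandas 2.3.3 and pysam 0.24.0; assignment was tested on simulated peaks. Exact words were looked for on either strand. The members and lists were chosen with earlier results of these data known, and the words other than RE1, the CpG classes, the CPLX1, CAMK2B and gene body sequences after values were seen.

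Named by rule were every member, the 5 strongest gene body peaks of each list, members with 5 or more, and the 3 strongest other synaptic genes per role. Alternatives varied the window, starts, thresholds and CpG window. The sequence of the strongest adhesion promoter peak is not reported here.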

Additional observations from a re-analysis of the deposited data

How the results depend on the processing

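Of 112 recomputed values for 20 results, 88 stayed within 1.5 times the reported count or within the interval of the median. Members with CHD8 numbered 14 above the median rank of the list (against 42.5% of all genes) to 27 with starts of all transcripts (59.2%). Counting starts of all transcripts gave TRRAP at 7 scaffold and 4 adhesion genes. Keeping only peaks above the median rank of each list left CHD8 at 1 receptor and 19 other synaptic genes, TRRAP at 5 members (2 presynaptic, 1 scaffold, 1 adhesion, 1 receptor; 19.5% of all genes), both proteins at 4 members (16.7%), CHD8 body peaks at 6 (6 members) and TRRAP body peaks at 3 (3 members). Cutting the CHD8 list to the length of the TRRAP list left 1 receptor, 28 other synaptic genes, and 9 body peaks in 7 members. Leaving out the windows of all transcript starts left 16 CHD8 body peaks in 11 members and 8 TRRAP body peaks in 6. The median CpG ratio of members with CHD8 was 0.799 with a CpG window of 250 bp. The CpG-poor members with CHD8 were 2 with a promoter window of 500 bp and 2 above the median rank; these alternatives, and the one that assigns a summit to the nearest gene, were chosen after seeing the data. The cause was not tested, beyond the smaller number of peaks that the stricter lists hold by construction. No paired analysis was possible because each antibody had 1 library. No replicate measures the error of any fold, and the depth of the libraries is unknown.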
